A study of Mus musculus with 11 samples.

Results

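Collagen chain genes encode the alpha chains from which collagens are assembled. Here they were every mouse gene whose symbol consists of Col, a type number, the letter a and a chain number, after the RefSeq accessions of the array probes had been matched to gene symbols. RefSeq lists 44 such genes, and 43 of them had a named probe on the array (Col12a1 was not analysed here). Of these 43 genes, 33 passed the filter on dim probes and were tested, among 16279 genes tested and 20964 genes named in all. Where a gene had several probes, the probe with the highest mean level stood for it.

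Collagen chains wind together into a helix inside the endoplasmic reticulum, where hydroxylases and chaperones modify and fold them, and enzymes outside the cell trim and cross-link the product. Fibrillar collagens form the fibrils of connective tissue, collagen IV forms the network of basement membranes, and collagen VI forms beaded filaments between the fibrils and the cells. In the early mouse embryo collagen IV is a component of the basement membranes that the endoderm lays down, and cultured embryonic stem (ES) cells also make matrix of their own.

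The samples were mouse ES cells of the 129/Ola background, unsorted, kept for at least 3 passages in 1 of 3 media that all contain leukaemia inhibitory factor (LIF). 2i/LIF (5 arrays) is a serum-free medium with inhibitors of the kinases MEK and GSK3. KOSR/LIF (3 arrays) uses a defined replacement for serum, and serum/LIF (3 arrays) is the standard medium. 2i/LIF and serum/LIF thus differ in serum as well as in the inhibitors, and these cannot be told apart here. The cells came from 3 lines, E14, HVJu5.1 and HVJu9.3, with 1 array of each line in KOSR/LIF and in serum/LIF. The title and the source name of 2i/LIF replicates 1 to 4 disagree on the line. The labels do not say whether 2i/LIF samples that share a line were grown separately, and every p-value here therefore refers to the scatter among these arrays alone, part of which may be technical. The series title asks whether each medium holds ES cells in a state of its own, and the comparisons below describe that for collagens.

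RNA of each sample was hybridised to 1 Agilent one-colour array. Levels below are log2 intensities relative to the 75th percentile of the same array, so a level of 0 is that percentile. Levels of different genes are not set against each other, and are combined only in the sums and medians of marker lists. The share of probes well above background was 53.7% to 72.6% on 10 arrays and 43.7% on KOSR/LIF replicate 3. On that array the lowest signal well above background lay at -2.37, against -6.27 to -3.80 on the others, so a dim collagen was measured there with a higher floor. KOSR/LIF replicate 3 held the highest KOSR/LIF level for 51.5% of the 33 tested members and for 33.7% of all genes tested. Serum/LIF replicate 3 held the highest serum/LIF level for 63.6% of the members and 35.3% of all genes. The 13 ES cell markers, among them Pou5f1, Nanog and Sox2, were well above background on all 11 arrays.

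Many collagen chain genes were expressed at a lower level in 2i/LIF than in either of the other media. Against serum/LIF, 13 of the 33 tested members fell, 0 rose and 20 did not pass the test (adjusted p under 0.05 in one linear model over all arrays). Across all genes tested 16.7% were called in this comparison, 6.74% higher and 9.98% lower, while 39.4% of the members were lower. The members' median log2 fold change was -1.21, against 0.03 over all genes. In 2i/LIF 13 members lay below every serum/LIF array and 0 above every one, against 14% of all genes below and 11.7% above. In bulk samples such as these, fewer cells that express a gene and less RNA per cell cannot be told apart. Against KOSR/LIF, again 13 members fell, 0 rose and 20 did not pass, with a background of 14.7% called, 5.95% higher and 8.72% lower. The median was -1.06, against 0.02 over all genes. Here 13 members lay below every KOSR/LIF array and 0 above every one, against 10.6% of all genes below and 9.04% above. Both comparisons use the same 2i/LIF arrays, so they are not independent of each other. Each set of 13 includes Col6a4 and Col6a5, which passed the filter on dim probes through KOSR/LIF and serum/LIF arrays alone. The falls of these genes are not independent of that filter.

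Between KOSR/LIF and serum/LIF few members passed. In KOSR/LIF, 1 member rose (Col1a2), 1 fell (Col7a1) and 31 did not pass, with a background of 4.58% called, 2.37% higher and 2.21% lower. The members' median was 0.52, against -0.03 over all genes, and 10 members had an unadjusted p under 0.05. In KOSR/LIF 11 members lay above every serum/LIF array and 4 lay below every one, against 12.4% of all genes above and 16% below. With scan day as a block the model called 14 members in 2i/LIF against serum/LIF, 2 in KOSR/LIF against serum/LIF and 14 in 2i/LIF against KOSR/LIF. With the slide as a block it called 14, 3 and 12. Within the first scan day alone, which held 2 arrays of each medium, it called 10, 2 and 10. The third held 2 arrays of 2i/LIF and 1 of serum/LIF, and there the model called 13 in 2i/LIF against serum/LIF, with the lone serum/LIF array assumed to vary like the 2i/LIF arrays. Without both arrays of the second scan day (2i/LIF replicate 2 and KOSR/LIF replicate 3), an alternative chosen after seeing the data, it called 15, 2 and 13.

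**Figure D1:**
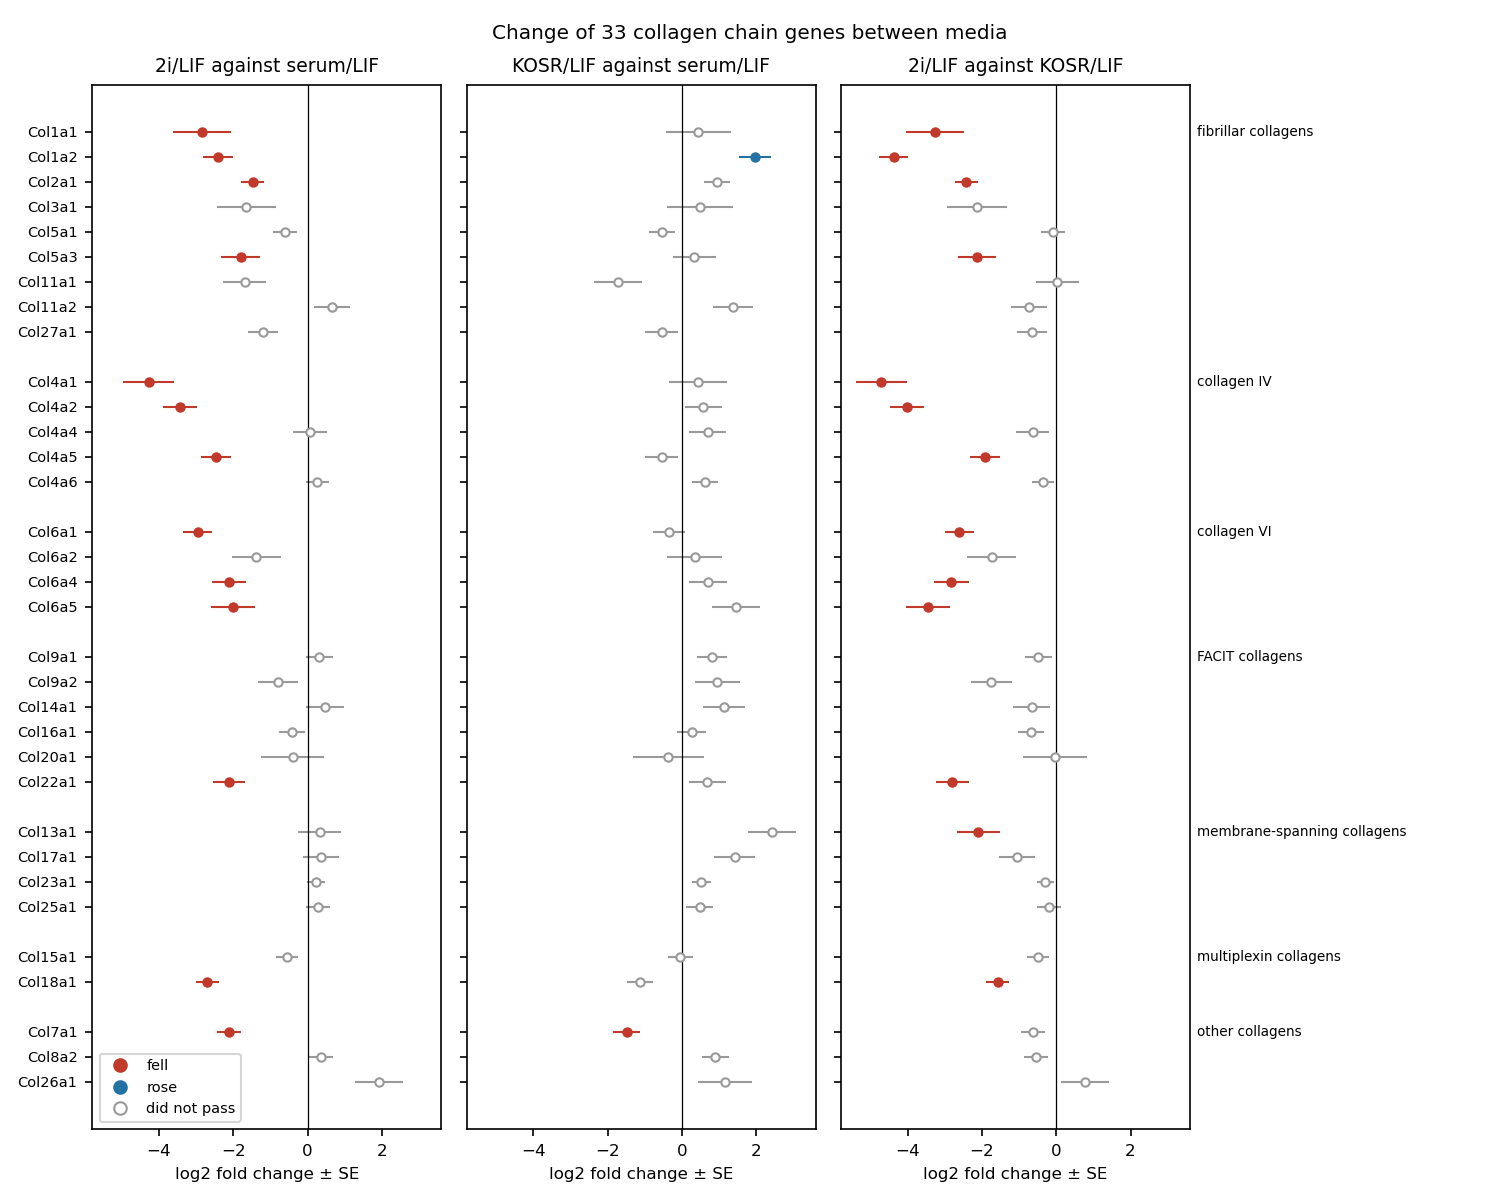
Log2 fold changes with their standard errors (horizontal axis) of the 33 tested collagen chain genes (vertical axis, grouped by collagen type) in the 3 comparisons of media. Filled red points fell and filled blue points rose at an adjusted p under 0.05, and open grey points did not pass. Both panels of 2i/LIF have 13 filled red points and no blue one, while the panel of KOSR/LIF against serum/LIF has 1 of each. For Col6a4 and Col6a5, not well above background on any 2i/LIF array, the fitted value is drawn.

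Among the fibrillar collagens 9 of 11 members were tested, and 4 fell in 2i/LIF against serum/LIF and 4 against KOSR/LIF. The members that fell in both were Col1a1, Col1a2, Col2a1 and Col5a3. Col1a1 and Col1a2 encode the chains of collagen I, the main collagen of skin and bone. Col2a1 encodes the collagen of cartilage, and Col5a3 encodes a chain of collagen V, which takes part in fibril assembly.

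Col1a2 was the member that passed in all 3 comparisons. Its level was -2.31, -1.82, -2.52, -1.82 and -2.02 on the 2i/LIF arrays, 2.12, 2.90 and 1.84 on the KOSR/LIF arrays, and 0.15, -0.51 and 1.31 on the serum/LIF arrays. The media did not overlap, with 2i/LIF lowest and KOSR/LIF highest. In 2i/LIF Col1a2 was 5.32-fold lower than in serum/LIF (log2 fold change -2.41 ± 0.39, SE, adjusted p = 0.00122) and 20.9-fold lower than in KOSR/LIF (-4.38 ± 0.39, adjusted p = 4.76e-05). In KOSR/LIF it rose by 1.97 ± 0.44 against serum/LIF (adjusted p = 0.0271). That rise did not pass without KOSR/LIF replicate 1 (adjusted p = 0.0647), KOSR/LIF replicate 2 (0.0959), serum/LIF replicate 1 (0.107) or serum/LIF replicate 2 (0.101), with values of 1.56 to 2.06.

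Col1a1 had levels of -2.57, -0.85, -2.96, -3.27 and -0.71 in 2i/LIF, 1.45, 1.45 and 0.70 in KOSR/LIF, and 0.52, -0.91 and 2.67 in serum/LIF. Replicates 2 and 5 of 2i/LIF were the highest of their medium and lay above serum/LIF replicate 2, so 2i/LIF and serum/LIF overlapped, while every KOSR/LIF array lay above every 2i/LIF array. Col1a1 fell by 2.83 ± 0.78 against serum/LIF (adjusted p = 0.0273) and by 3.27 ± 0.78 against KOSR/LIF (adjusted p = 0.0154). The call against serum/LIF was lost without 2i/LIF replicate 1 (adjusted p = 0.0561), replicate 3 (0.0586) or replicate 4 (0.0567), and without serum/LIF replicate 1 (0.0718) or replicate 3 (-1.88, adjusted p = 0.138). The call against KOSR/LIF was lost without KOSR/LIF replicate 1 (0.0552) or replicate 2 (0.0542). The standard error of these differences was 0.78 for Col1a1 and 0.39 for Col1a2, its partner chain.

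The levels of Col2a1 were -1.58, -0.83, -0.33, -1.31 and -0.69 in 2i/LIF, 1.11, 1.48 and 1.84 in KOSR/LIF, and 0.88, 0.51 and 0.20 in serum/LIF. No array of one medium overlapped another medium. Col2a1 fell by 1.48 ± 0.31 in 2i/LIF against serum/LIF (adjusted p = 0.00612) and by 2.42 ± 0.31 against KOSR/LIF (adjusted p = 0.000392). Its difference between KOSR/LIF and serum/LIF was 0.95 ± 0.35 and did not pass (adjusted p = 0.163).

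Col5a3 had levels of -3.42, -4.59, -2.45, -3.99 and -3.51 in 2i/LIF, -0.89, -0.82 and -2.65 in KOSR/LIF, and -2.44, -1.48 and -1.44 in serum/LIF. The 2i/LIF arrays lay below all serum/LIF arrays, replicate 3 of 2i/LIF only just, and KOSR/LIF replicate 3, where the probe was not well above background, lay within the 2i/LIF range. Col5a3 fell by 1.81 ± 0.52 against serum/LIF (adjusted p = 0.0335) and by 2.14 ± 0.52 against KOSR/LIF (adjusted p = 0.0167). The call against serum/LIF was lost without 2i/LIF replicates 1, 2, 4 or 5 in turn (adjusted p = 0.0521, 0.0631, 0.0683 and 0.0564) or serum/LIF replicates 2 or 3 (0.127 and 0.132). The call against KOSR/LIF was lost without KOSR/LIF replicates 1 or 2 (0.0746 and 0.0737).

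Col3a1, which encodes collagen III of elastic tissues, did not pass in any comparison. Its levels were -4.99, -1.03, -4.22, -4.46 and -4.52 in 2i/LIF, -1.92, -1.23 and -1.96 in KOSR/LIF, and -2.43, -3.18 and -0.96 in serum/LIF. Replicate 2 of 2i/LIF stood far above the other 4 arrays of its medium and lay among the arrays of the other media. The difference was -1.65 ± 0.80 between 2i/LIF and serum/LIF (adjusted p = 0.213) and -2.14 ± 0.80 between 2i/LIF and KOSR/LIF (adjusted p = 0.102). Without 2i/LIF replicate 2 both differences passed, at -2.36 (adjusted p = 0.00538) and -2.84 (adjusted p = 0.00247).

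The other tested fibrillar members, Col5a1, Col11a1, Col11a2 and Col27a1, passed in no comparison. The nearest were Col27a1 at -1.21 ± 0.41 (adjusted p = 0.0649) and Col11a1 at -1.69 ± 0.58 (adjusted p = 0.0694), both for 2i/LIF against serum/LIF. Col11a1 was not well above background on any KOSR/LIF array and was so on all 3 serum/LIF arrays. Col11a2, the partner of Col11a1 in collagen XI, had the opposite sign, at 0.65 ± 0.48 in 2i/LIF against serum/LIF and 1.38 ± 0.54 in KOSR/LIF against serum/LIF (adjusted p = 0.466 and 0.188).

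**Figure D2:**
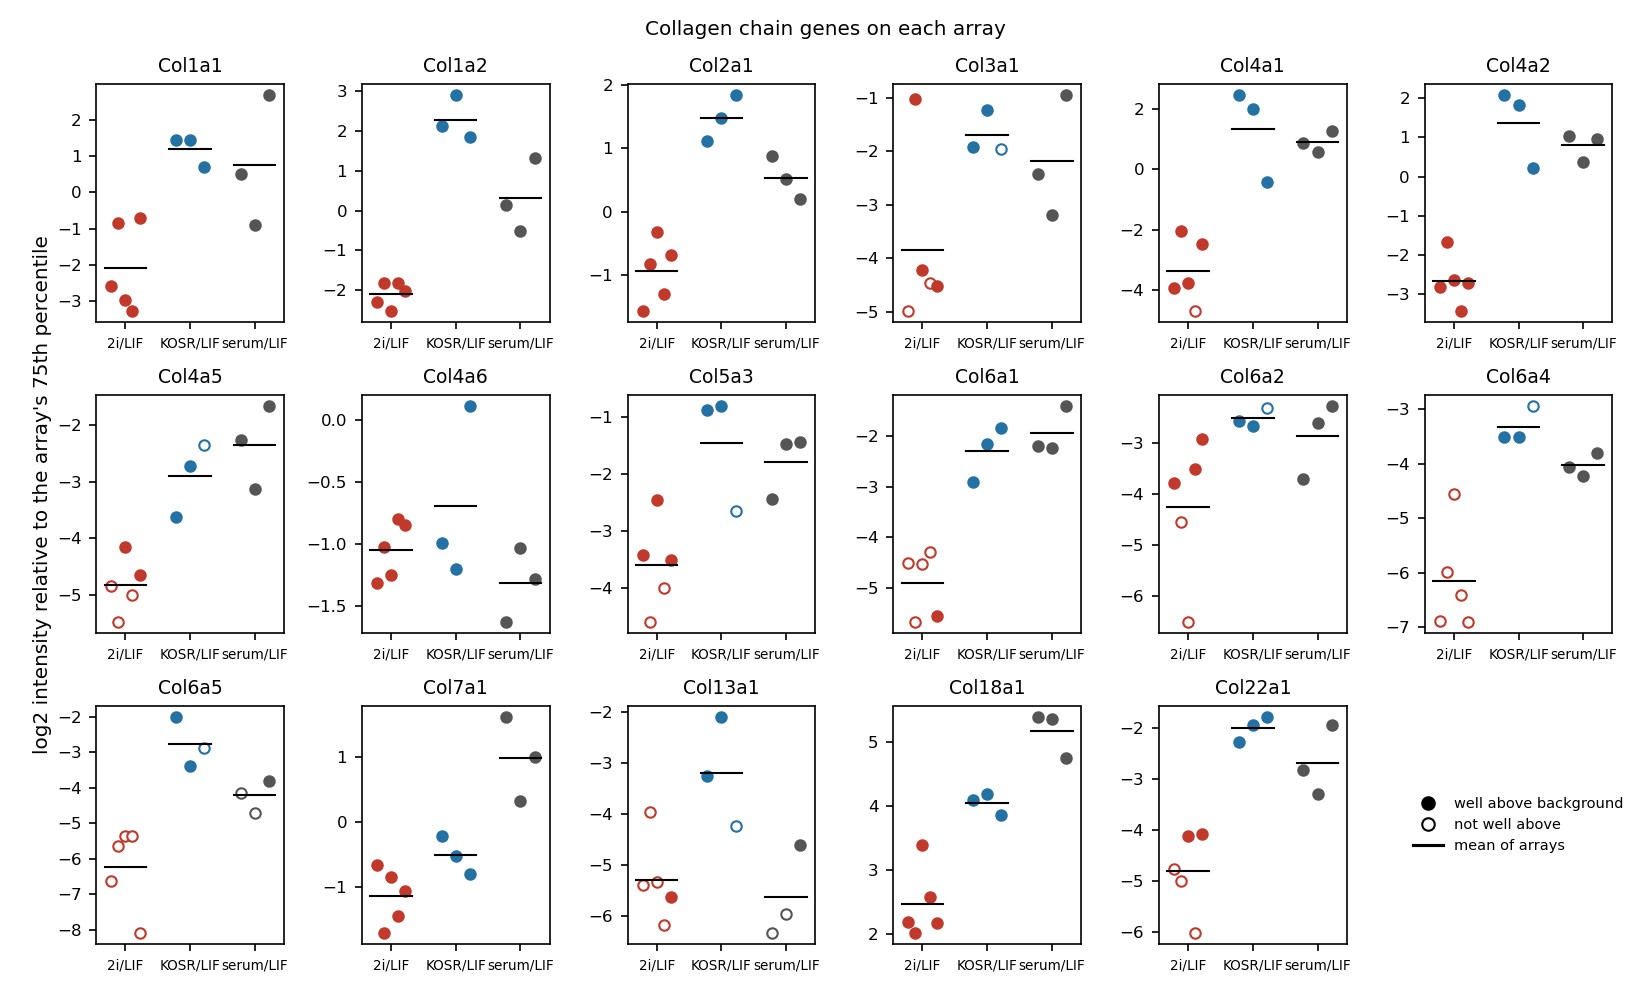
Log2 intensity relative to the 75th percentile of the array (vertical axis, its range differing between panels) of 17 collagen chain genes, with 1 point per array and the mean of each medium as a line. Media run from 2i/LIF (red, 5 arrays) through KOSR/LIF (blue, 3 arrays) to serum/LIF (grey, 3 arrays), and open points were not well above background. The panels of Col1a2, Col4a2 and Col18a1 show 2i/LIF arrays apart from all others, and the panel of Col3a1 shows 1 2i/LIF array, at -1.03, among those of the other media.

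The lowest log2 fold change of the 33 members, in 2i/LIF against either other medium, was that of the collagen IV gene Col4a1. Of 6 collagen IV genes 5 were tested, and Col4a1, Col4a2 and Col4a5 fell in 2i/LIF against both other media, while Col4a4 and Col4a6 did not pass. Col4a1 and Col4a2 encode the chains of the most widespread collagen IV, and Col4a5 encodes a chain that joins collagen IV of kidney and smooth muscle basement membranes. The genes of collagen IV lie head to head as neighbouring pairs in the mouse genome. RefSeq places the starts of Col4a1 and Col4a2 21 bases apart on opposite strands, so that the 300-base windows around their starts share 78 bases, and the starts of Col4a6 and Col4a5 1343 bases apart. The windows of Col4a1 and Col4a2 are shown because their starts lie so close together. Whether the shared stretch bears on their levels was not tested. They run from 250 bases before to 50 bases after the start in RefSeq's annotation of GRCm38.p6, at chr8:11312777-11313076 on the minus strand for Col4a1 and chr8:11312555-11312854 on the plus strand for Col4a2. Capitals mark GGGCGG (the GC box) and CCAAT (the CCAAT box) on either strand.
Col4a1: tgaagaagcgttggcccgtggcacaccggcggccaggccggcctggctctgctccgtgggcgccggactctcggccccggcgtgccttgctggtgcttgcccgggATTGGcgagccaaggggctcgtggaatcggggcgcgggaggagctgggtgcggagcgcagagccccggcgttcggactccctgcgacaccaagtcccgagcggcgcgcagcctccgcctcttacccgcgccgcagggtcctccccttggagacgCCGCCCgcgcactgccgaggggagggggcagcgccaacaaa
Col4a2: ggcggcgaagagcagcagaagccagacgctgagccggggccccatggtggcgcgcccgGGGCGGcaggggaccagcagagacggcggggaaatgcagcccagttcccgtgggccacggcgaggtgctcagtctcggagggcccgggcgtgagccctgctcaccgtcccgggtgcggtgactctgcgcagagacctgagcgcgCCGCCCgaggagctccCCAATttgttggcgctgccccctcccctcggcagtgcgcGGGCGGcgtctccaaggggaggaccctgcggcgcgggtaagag

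The Col4a1 window holds 1 GC box and 1 CCAAT box, and the Col4a2 window holds 3 GC boxes and 1 CCAAT box. Neither holds TATAAA. The GC box of Col4a1 lies in the 78 shared bases and is also 1 of the 3 counted for Col4a2. Over all 32851 such windows in RefSeq's table, GGGCGG was found in 35.7%, CCAAT in 37.4% and TATAAA in 13.6%, each on either strand. Of 38 windows of 35 collagen chain genes, 60.5% held GGGCGG, 34.2% CCAAT and 13.2% TATAAA. A match is a run of letters and not evidence of binding.

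Col4a1 had levels of -3.92, -2.03, -3.75, -4.69 and -2.47 on the 2i/LIF arrays, 2.45, 1.99 and -0.42 in KOSR/LIF, and 0.87, 0.58 and 1.27 in serum/LIF. All 2i/LIF arrays lay below all others, and KOSR/LIF replicate 3 was well below replicates 1 and 2. Col4a1 was 19.4-fold lower in 2i/LIF cells than in serum/LIF (-4.28 ± 0.69, adjusted p = 0.00121) and 26.2-fold lower than in KOSR/LIF (-4.71 ± 0.69, adjusted p = 0.000877). Without KOSR/LIF replicate 3 the last difference was -5.59.

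Col4a2 showed the same order, with levels of -2.81, -1.66, -2.63, -3.42 and -2.71 in 2i/LIF, 2.07, 1.82 and 0.23 in KOSR/LIF, and 1.04, 0.38 and 0.96 in serum/LIF. No 2i/LIF array reached the level of any other array. It was 10.9-fold lower in 2i/LIF cells than in serum/LIF (-3.44 ± 0.45, adjusted p = 0.00033) and 16.2-fold lower than in KOSR/LIF (-4.02 ± 0.45, adjusted p = 0.000176). Between KOSR/LIF and serum/LIF the arrays overlapped for both genes, and the differences were 0.43 ± 0.77 for Col4a1 and 0.58 ± 0.51 for Col4a2 (adjusted p = 0.793 and 0.575). The 95% intervals of these differences ran from -1.26 to 2.13 and from -0.53 to 1.69.

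Col4a5 had levels of -4.83, -5.47, -4.15, -5.00 and -4.64 in 2i/LIF, -3.63, -2.72 and -2.36 in KOSR/LIF, and -2.26, -3.14 and -1.68 in serum/LIF. The 2i/LIF arrays lay below all others, and the probe was well above background on 2 of the 5. Col4a5 fell by 2.46 ± 0.40 against serum/LIF (adjusted p = 0.00125) and by 1.92 ± 0.40 against KOSR/LIF (adjusted p = 0.00744). When each signal that was not well above background was replaced by the floor of its array, where that was higher, the differences were -1.96 and -1.42 (floored values below).

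Col4a6, the neighbour of Col4a5, was measured by a pair of probes with different outcomes. The brighter, which stood for the gene, gave levels of -1.31 to -0.80 in 2i/LIF, -1.20 to 0.11 in KOSR/LIF and -1.63 to -1.03 in serum/LIF, and the media overlapped. Its difference was 0.27 ± 0.30 between 2i/LIF and serum/LIF (adjusted p = 0.68) and -0.35 ± 0.30 between 2i/LIF and KOSR/LIF (adjusted p = 0.503). The dimmer probe of Col4a6 read -6.79, -4.97, -6.66, -6.16 and -8.10 in 2i/LIF, where no array showed it well above background, against -4.59, -4.10 and -2.93 in KOSR/LIF and -2.86, -4.34 and -2.77 in serum/LIF. It was well above background on 1 KOSR/LIF and 2 serum/LIF arrays. The dimmer probe thus passed the filter on dim probes through these arrays alone, and its lower level in 2i/LIF is not independent of that filter. In a fit over all 21274 named probes that passed the filter, of which 15.9% were called in 2i/LIF against serum/LIF and 13.6% against KOSR/LIF, this probe was at least 2.76-fold lower than in serum/LIF (means -6.54 and -3.32, adjusted p = 0.00435) and at least 1.89-fold lower than in KOSR/LIF (means -6.54 and -3.87, adjusted p = 0.0159). Between KOSR/LIF and serum/LIF, where 4.13% of probes were called, it differed by -0.55 ± 0.71 (adjusted p = 0.713). With the mean over probes in place of the brighter one, the Col4a6 difference turned to -1.47 against serum/LIF (adjusted p = 0.0203) and was -1.51 against KOSR/LIF (adjusted p = 0.0211).

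**Figure D3:**
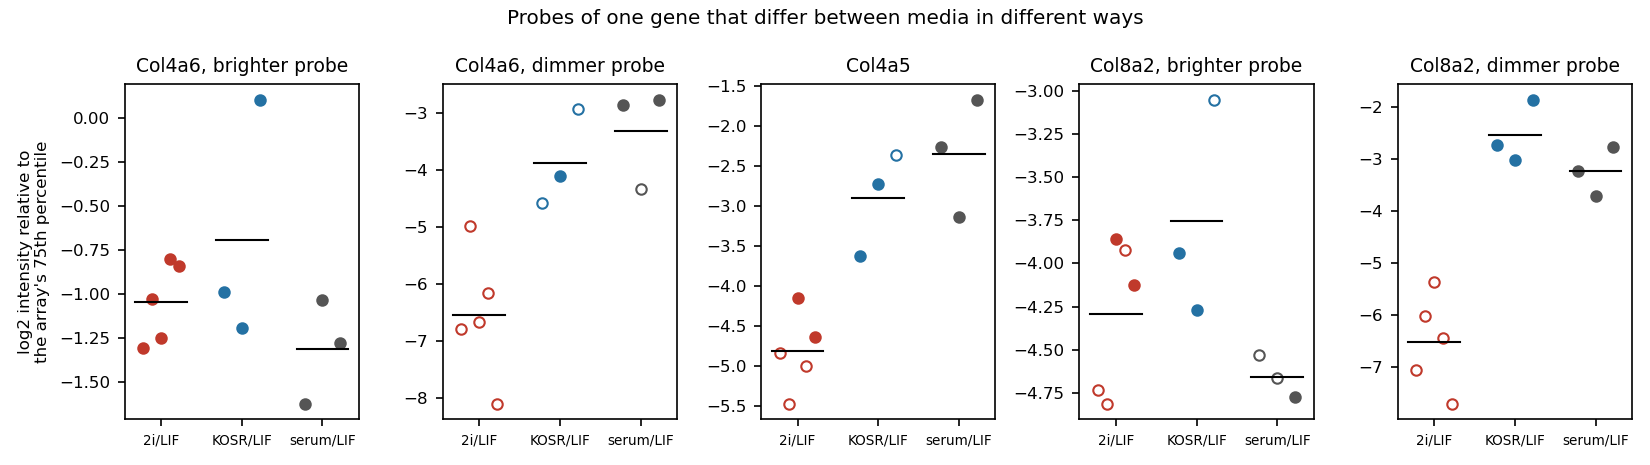
Log2 intensity relative to the 75th percentile of the array (vertical axis, its range differing between panels) for single probes of Col4a6, Col4a5 and Col8a2, with 1 point per array, open where not well above background, and the mean of each medium as a line. Media run from 2i/LIF through KOSR/LIF to serum/LIF. The brighter probe of Col4a6 overlapped between media, whereas its dimmer probe and the Col4a5 probe lay lower on every 2i/LIF array than on any other; the dimmer probe of Col8a2 did so too, and its brighter probe did not.

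Collagen VI had 4 of 6 genes tested, and Col6a1, Col6a4 and Col6a5 fell in 2i/LIF against both other media. Col6a1 and Col6a2 encode the short chains of collagen VI, and Col6a4 and Col6a5 encode alternative long chains. Col6a1 had levels of -4.51, -5.67, -4.52, -4.29 and -5.55 in 2i/LIF, -2.90, -2.17 and -1.84 in KOSR/LIF, and -2.19, -2.24 and -1.41 in serum/LIF. The 2i/LIF arrays lay below all others, and the probe was well above background on 1 of them. Col6a1 fell by 2.96 ± 0.39 against serum/LIF (adjusted p = 0.000334) and by 2.61 ± 0.39 against KOSR/LIF (adjusted p = 0.00101). Its floored values were -2.58 and -2.22.

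Col6a2, the partner of Col6a1, had levels of -3.79, -4.56, -6.50, -3.52 and -2.93 in 2i/LIF, -2.59, -2.68 and -2.32 in KOSR/LIF, and -3.71, -2.62 and -2.29 in serum/LIF. The arrays of 2i/LIF overlapped with serum/LIF and lay below those of KOSR/LIF. The difference of Col6a2 was -1.39 ± 0.66 against serum/LIF (adjusted p = 0.206) and -1.73 ± 0.66 against KOSR/LIF (adjusted p = 0.11), and neither passed.

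The long chains Col6a4 and Col6a5 were not well above background on any 2i/LIF array, so their folds are bounds. Both passed the filter on dim probes through KOSR/LIF and serum/LIF arrays alone, so their falls are not independent of that filter. Col6a4 had levels of -6.89, -5.98, -4.56, -6.41 and -6.91 in 2i/LIF, -3.51, -3.51 and -2.94 in KOSR/LIF, and -4.05, -4.23 and -3.80 in serum/LIF. It was at least 1.60-fold lower in 2i/LIF cells than in serum/LIF (means -6.15 and -4.03, adjusted p = 0.00756) and at least 2.61-fold lower than in KOSR/LIF (means -6.15 and -3.32, adjusted p = 0.00177). Every 2i/LIF array was lower than every other array for both genes. Col6a5 had levels of -6.64, -5.63, -5.36, -5.37 and -8.10 in 2i/LIF, -2.01, -3.38 and -2.89 in KOSR/LIF, and -4.15, -4.70 and -3.80 in serum/LIF. It was at least 1.49-fold lower in 2i/LIF cells than in serum/LIF (means -6.22 and -4.21, adjusted p = 0.0362), where it was well above background on 1 of 3 arrays, and at least 4.08-fold lower than in KOSR/LIF (means -6.22 and -2.76, adjusted p = 0.00221). With floored signals, neither gene passed against serum/LIF (adjusted p = 0.433 for Col6a4 and 0.498 for Col6a5). The Col6a5 call against serum/LIF was also lost without 2i/LIF replicate 1 (0.0721) or serum/LIF replicates 1, 2 or 3 (0.114, 0.0602 and 0.14).

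Among the FACIT collagens, which sit on the surface of fibrils and link them to their surroundings, 6 of 9 were tested and Col22a1 fell. Its product is found at tissue junctions such as those of muscle and tendon. Col22a1 had levels of -4.77, -5.00, -4.12, -6.03 and -4.08 in 2i/LIF, -2.26, -1.94 and -1.78 in KOSR/LIF, and -2.82, -3.29 and -1.94 in serum/LIF. All 2i/LIF arrays were lower than all others. It fell by 2.12 ± 0.44 against serum/LIF (adjusted p = 0.00565) and by 2.80 ± 0.44 against KOSR/LIF (adjusted p = 0.00133). On 2 of 5 2i/LIF arrays its probe was well above background, and the floored values were -1.52 and -2.21.

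The other FACIT members, Col9a1, Col9a2, Col14a1, Col16a1 and Col20a1, did not pass. Col9a2, a chain of the cartilage collagen IX, lay lower on every 2i/LIF array (-1.36 to 1.25) than on any KOSR/LIF array (1.86 to 2.34), with a difference of -1.75 ± 0.55 (adjusted p = 0.0536). Col20a1 ranged from -3.24 to 0.48 over the 2i/LIF arrays, and none of its differences exceeded its standard error.

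Of the membrane-spanning collagens, which cells carry as surface proteins, all 4 genes were tested. None passed in 2i/LIF against serum/LIF, where the differences of Col13a1, Col17a1, Col23a1 and Col25a1 ran from 0.22 to 0.35. Col13a1, found at cell contacts and the neuromuscular junction, had levels of -5.40, -3.96, -5.33, -6.18 and -5.63 in 2i/LIF, -3.25, -2.10 and -4.23 in KOSR/LIF, and -6.33, -5.95 and -4.60 in serum/LIF. KOSR/LIF lay above serum/LIF on all arrays and overlapped with 2i/LIF, and the probe was well above background on 1, 2 and 1 arrays of 2i/LIF, KOSR/LIF and serum/LIF. Col13a1 fell by 2.11 ± 0.58 in 2i/LIF against KOSR/LIF (adjusted p = 0.0299). Its difference between KOSR/LIF and serum/LIF was 2.43 ± 0.65 and did not pass (adjusted p = 0.0569). The fall was lost without 2i/LIF replicate 1, 3, 4 or 5 (adjusted p = 0.0565, 0.0523, 0.0642 and 0.0603) and without KOSR/LIF replicate 1 or 2 (0.0758 and 0.125). Conversely, the difference between KOSR/LIF and serum/LIF passed without 2i/LIF replicate 2 (0.0358), KOSR/LIF replicate 3 (2.96, adjusted p = 0.0389) or serum/LIF replicate 3 (0.0497).

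The multiplexins are the collagens of basement membrane zones whose protein cores carry sugar chains, and Col18a1, the source of the fragment endostatin, fell in 2i/LIF against both other media. Col18a1 had levels of 2.19, 2.01, 3.39, 2.58 and 2.17 in 2i/LIF, 4.09, 4.18 and 3.85 in KOSR/LIF, and 5.38, 5.36 and 4.75 in serum/LIF. The media did not overlap, with 2i/LIF lowest and serum/LIF highest. Col18a1 fell by 2.70 ± 0.32 against serum/LIF (adjusted p = 0.000151), 6.48-fold, and by 1.58 ± 0.32 against KOSR/LIF (adjusted p = 0.00578), 2.98-fold. Its difference between KOSR/LIF and serum/LIF was -1.12 ± 0.35 (adjusted p = 0.104), short of the threshold. It passed without 2i/LIF replicate 3, an array that enters this comparison through the estimate of spread alone (adjusted p = 0.0422). A second Col18a1 probe gave -3.23 ± 0.31 and -1.89 ± 0.31 for 2i/LIF against serum/LIF and against KOSR/LIF. Col15a1, the other multiplexin, did not pass in any comparison.

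Col7a1, the anchoring fibril collagen that fastens epithelium to the tissue beneath it, was the member that fell in both 2i/LIF and KOSR/LIF against serum/LIF. Its levels were -0.66, -1.70, -0.84, -1.43 and -1.06 in 2i/LIF, -0.22, -0.51 and -0.80 in KOSR/LIF, and 1.61, 0.33 and 1.00 in serum/LIF. Every serum/LIF array lay above every array of the other media, and 2i/LIF and KOSR/LIF overlapped. Col7a1 fell by 2.12 ± 0.33 in 2i/LIF (adjusted p = 0.000905) and by 1.49 ± 0.37 in KOSR/LIF (adjusted p = 0.0427). The difference between 2i/LIF and KOSR/LIF was -0.63 ± 0.33 and did not pass (adjusted p = 0.246). The fall in KOSR/LIF was lost in 19 of 27 alternative analyses. Among them were those without 2i/LIF replicate 3, 4 or 5 (adjusted p = 0.0541, 0.0535 and 0.0582), KOSR/LIF replicate 1, 2 or 3 (0.0733, 0.106 and 0.109) and serum/LIF replicate 1 or 3 (0.174 and 0.116).

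Col8a2 and Col26a1 were the remaining members tested. Col26a1 was the member with the largest positive difference in 2i/LIF against serum/LIF, at 1.93 ± 0.65, which did not pass (adjusted p = 0.0662), and serum/LIF replicate 1 (-3.19) lay far below the other serum/LIF arrays (-0.85 and -0.78). Col8a2, a chain of the hexagonal network of the cornea, had a pair of probes that disagreed. The brighter Col8a2 probe differed by 0.37 ± 0.32 between 2i/LIF and serum/LIF and by -0.54 ± 0.32 between 2i/LIF and KOSR/LIF (adjusted p = 0.561 and 0.322). The dimmer Col8a2 probe read -7.06, -6.02, -5.36, -6.45 and -7.71 in 2i/LIF, -2.72, -3.0 and -1.85 in KOSR/LIF, and -3.23, -3.70 and -2.77 in serum/LIF. It was well above background on every KOSR/LIF and serum/LIF array and on none of 2i/LIF. This probe thus passed the filter on dim probes through those arrays alone, and its lower level in 2i/LIF is not independent of that filter. In the fit over probes it was at least 2.95-fold lower in 2i/LIF cells than in serum/LIF (means -6.52 and -3.23, adjusted p = 0.000692) and at least 4.80-fold lower than in KOSR/LIF (means -6.52 and -2.53, adjusted p = 0.000301).

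The 10 members with a probe that were not tested were Col4a3, Col5a2, Col6a3, Col6a6, Col8a1, Col9a3, Col10a1, Col19a1, Col24a1 and Col28a1. Of these, 6 were well above background on no array and 4 on 1 or 2 arrays. No comparison between media was made for them.

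For Col1a2, the member that passed in all 3 comparisons, the RefSeq window of GRCm38.p6 around the start is chr6:4505368-4505667 on the plus strand. Capitals mark GGGCGG and CCAAT on either strand, and the window holds 2 of each and no TATAAA.
Col1a2: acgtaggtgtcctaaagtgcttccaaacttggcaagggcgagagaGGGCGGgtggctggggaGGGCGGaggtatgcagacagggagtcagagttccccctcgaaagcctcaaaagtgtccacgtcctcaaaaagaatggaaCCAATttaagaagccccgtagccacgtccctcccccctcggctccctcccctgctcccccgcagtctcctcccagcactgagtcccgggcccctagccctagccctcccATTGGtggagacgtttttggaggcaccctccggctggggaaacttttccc

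Genes whose products make, modify, bind or degrade collagen were measured beside the chains, from lists chosen with earlier results of these data known. Among 24 tested hydroxylases, chaperones and export factors, 2 rose and 4 fell in 2i/LIF against serum/LIF, 0 passed in KOSR/LIF against serum/LIF (3 at an unadjusted p under 0.05), and 2 rose and 5 fell in 2i/LIF against KOSR/LIF. In that order 16.7%, 0% and 20.8% of the list fell, against 9.98%, 2.21% and 8.72% of all genes. The shares that rose were 8.33%, 0% and 8.33%, against 6.74%, 2.37% and 5.95% of all genes. Fkbp10, a prolyl isomerase that folds procollagen, averaged 0.67 in 2i/LIF and fell by 3.15 ± 0.22 against serum/LIF (mean 3.81, adjusted p = 4.93e-06) and by 2.52 ± 0.22 against KOSR/LIF (mean 3.18, adjusted p = 4.37e-05). P4ha2, a catalytic subunit of prolyl 4-hydroxylase, had values of -1.69 ± 0.41 and -2.45 ± 0.41, and P3h4, a scaffold of the lysyl hydroxylase complex, of -1.92 ± 0.33 and -1.50 ± 0.33. Both genes fell in both comparisons. In the other direction Colgalt1, which adds galactose to hydroxylysine, rose by 1.14 ± 0.32 and 1.20 ± 0.32. The medians of the list were -0.22 and -0.25, against 0.03 and 0.02 over all genes, and 18 and 17 of its members did not pass.

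Of 13 tested genes for propeptide cleavage and cross-linking, 1 rose and 5 fell in 2i/LIF against serum/LIF, 0 rose and 1 fell in KOSR/LIF against serum/LIF, and 1 rose and 4 fell in 2i/LIF against KOSR/LIF. In that order 38.5%, 7.69% and 30.8% fell, against 9.98%, 2.21% and 8.72% of all genes. The shares that rose were 7.69%, 0% and 7.69%, against 6.74%, 2.37% and 5.95% of all genes. Pxdn, the peroxidase that forms the sulfilimine cross-links of collagen IV, averaged -3.16 in 2i/LIF and fell by 5.85 ± 0.34 against serum/LIF (mean 2.69, adjusted p = 2.54e-06) and by 5.16 ± 0.34 against KOSR/LIF (mean 1.99, adjusted p = 1.28e-05). Loxl2, a lysyl oxidase that also acts on collagen IV, fell by 3.23 ± 0.48 against serum/LIF and fell by 4.20 ± 0.48 against KOSR/LIF. Loxl1, another lysyl oxidase, fell by 2.88 ± 0.36 against KOSR/LIF. Loxl4 was not well above background on any 2i/LIF or KOSR/LIF array, and was at least 3.31-fold lower in 2i/LIF (means -6.48 and -3.06, adjusted p = 0.00104) and at least 1.66-fold lower in KOSR/LIF (means -5.69 and -3.06, adjusted p = 0.032) than in serum/LIF. Loxl4 passed the filter on dim probes through its serum/LIF arrays alone, so its falls are not independent of that filter. It is the 1 gene of this list counted as fallen in KOSR/LIF against serum/LIF. Pcolce, an enhancer of procollagen C-propeptide cleavage, rose in 2i/LIF by 1.08 ± 0.23 against serum/LIF and by 0.91 ± 0.23 against KOSR/LIF.

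Of 7 tested collagen receptors, 3 fell and 0 rose in 2i/LIF against serum/LIF, 1 fell and 0 rose in KOSR/LIF against serum/LIF, and 1 fell and 0 rose in 2i/LIF against KOSR/LIF. In that order 42.9%, 14.3% and 14.3% fell, against 9.98%, 2.21% and 8.72% of all genes, while 6.74%, 2.37% and 5.95% of all genes rose. Ddr1, a receptor tyrosine kinase that collagen activates, fell by 2.40 ± 0.25 in 2i/LIF (adjusted p = 6.83e-05) and by 1.77 ± 0.28 in KOSR/LIF (adjusted p = 0.00687) against serum/LIF. Mrc2, which takes up collagen for degradation, fell in 2i/LIF by 2.84 ± 0.48 against serum/LIF and by 3.22 ± 0.48 against KOSR/LIF, with floored values of -2.14 and -2.54. Itga11, an integrin chain that binds fibrillar collagen, fell by 2.37 ± 0.70 in 2i/LIF against serum/LIF (adjusted p = 0.0367), with overlapping arrays and a floored value of -1.52.

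Of 11 tested genes for collagen degradation and its inhibitors, 1 rose and 4 fell in 2i/LIF against serum/LIF, 1 rose and 0 fell in KOSR/LIF against serum/LIF, and 1 rose and 5 fell in 2i/LIF against KOSR/LIF. In that order 36.4%, 0% and 45.5% fell, against 9.98%, 2.21% and 8.72% of all genes. The share that rose was 9.09% in each, against 6.74%, 2.37% and 5.95% of all genes. Both proteases and inhibitors were among those that fell. Mmp2, a gelatinase, fell in 2i/LIF by 3.42 ± 0.56 against serum/LIF and by 3.04 ± 0.56 against KOSR/LIF. Timp3, an inhibitor bound to the matrix, fell by 4.77 ± 0.57 against serum/LIF and fell by 3.16 ± 0.57 against KOSR/LIF, with floored values of -4.22 and -2.67. Timp2, a further inhibitor, fell by 3.33 ± 0.50 against serum/LIF. Mmp9, the other gelatinase, rose by 1.63 ± 0.41 in KOSR/LIF against serum/LIF (adjusted p = 0.0478) and fell by 2.72 ± 0.37 in 2i/LIF against KOSR/LIF. Its floored values were 1.77 and -2.20. The Mmp9 probe was well above background on 1 of 5 2i/LIF, 2 of 3 KOSR/LIF and 1 of 3 serum/LIF arrays. Timp1 rose in 2i/LIF by 0.84 ± 0.25 against serum/LIF (adjusted p = 0.0401) and by 1.11 ± 0.25 against KOSR/LIF.

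**Figure D4:**
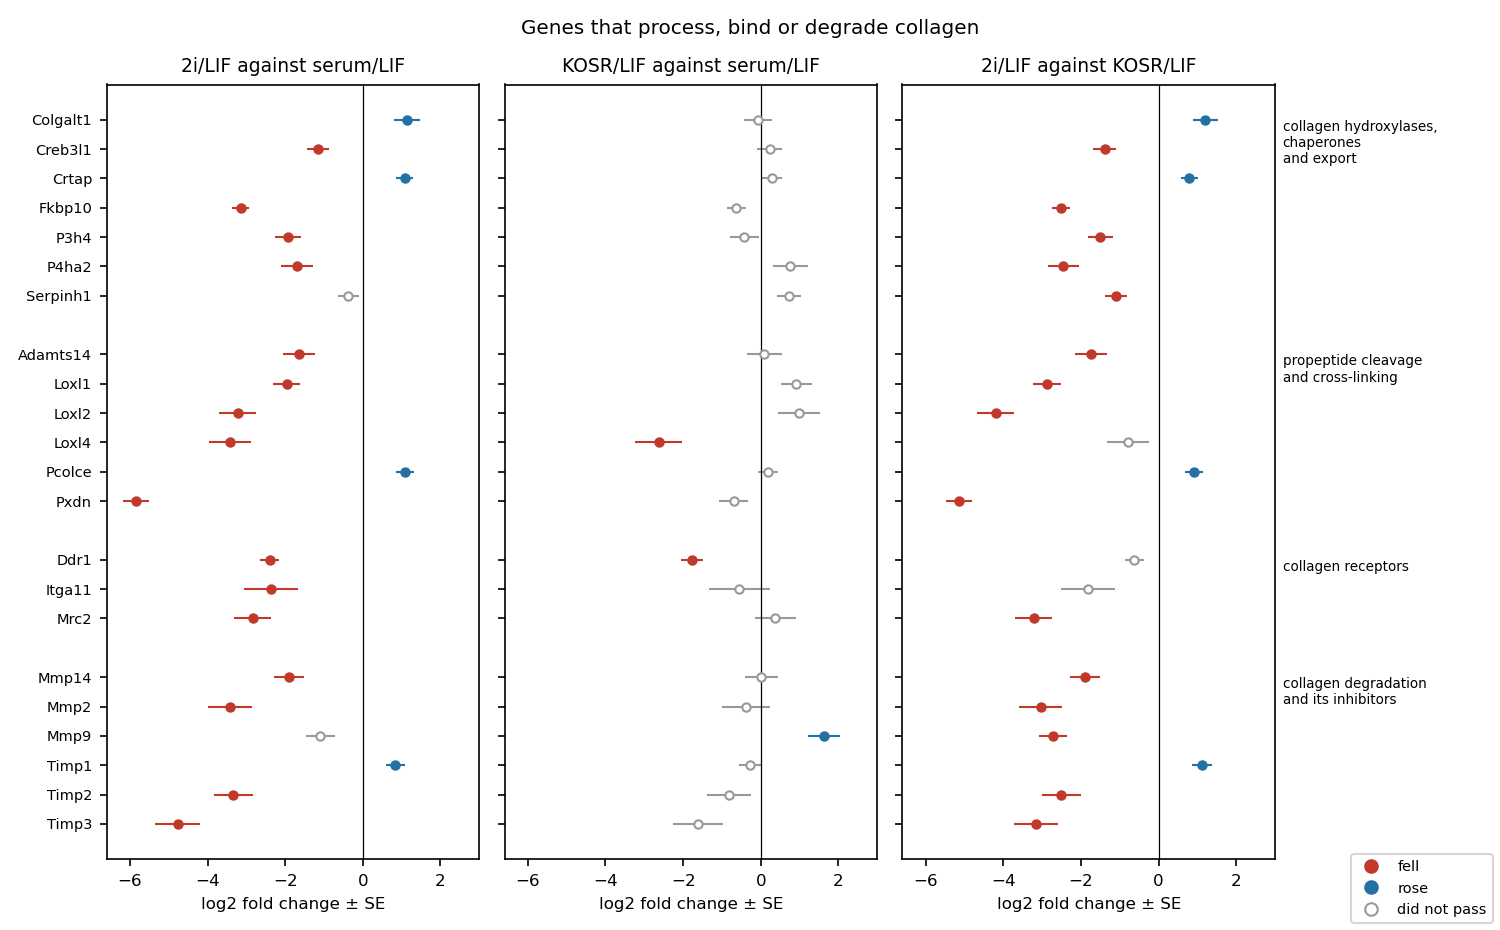
Log2 fold changes with their standard errors (horizontal axis) of 22 genes that process, bind or degrade collagen and passed in at least 1 comparison (vertical axis, grouped by role). Filled red points fell, filled blue points rose and open grey points did not pass. Pxdn is the lowest point in both panels of 2i/LIF, at -5.85 and -5.16. For Loxl4, not well above background in 2i/LIF or KOSR/LIF, the fitted value is drawn.

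Markers of other cell types that can make collagen were measured too. Of 18 tested markers of primitive and parietal endoderm, 6 fell and 0 rose in 2i/LIF against serum/LIF, 1 fell and 1 rose in KOSR/LIF against serum/LIF, and 11 fell and 1 rose in 2i/LIF against KOSR/LIF. In that order 33.3%, 5.56% and 61.1% fell, against 9.98%, 2.21% and 8.72% of all genes. The shares that rose were 0%, 5.56% and 5.56%, against 6.74%, 2.37% and 5.95% of all genes. Their summed level, as multiples of the array's 75th percentile, was 143 to 207 on the 2i/LIF arrays, 93.6 to 257 on the KOSR/LIF arrays and 172 to 223 on the serum/LIF arrays, so the sums overlapped. Such a sum is carried by the brightest probes, here Sparc and Lamc1 (log2 levels of 7.24 and 5.34 on 2i/LIF replicate 5). The list's median log2 level was -3.74 to -2.69 on the 2i/LIF arrays, -1.88 to 0.91 on the KOSR/LIF arrays and -2.65 to -1.44 on the serum/LIF arrays. Every 2i/LIF array was below every other array, but 2i/LIF replicate 3 (-2.69) only just below serum/LIF replicate 1 (-2.65). Of the 18 markers, 9 to 17 were well above background on the 2i/LIF arrays. In KOSR/LIF 10 to 18 were, and in serum/LIF 14 to 18, so some medians rest partly on dim signals. Dab2, an endocytic adaptor, and Lrp2, its receptor partner, fell in 2i/LIF against serum/LIF, with log2 fold changes of -4.12 ± 0.83 (floored value -2.51) and -4.05 ± 0.47, and the laminin chain Lamb1 fell by 3.25 ± 0.34. Against KOSR/LIF, 2i/LIF cells had lower Dab2 (-4.89 ± 0.83, floored -3.41), Cubn (-4.56 ± 0.74, floored -4.25), Gata6 (-4.24 ± 0.98, floored -3.94) and Lrp2 (-4.10 ± 0.47), while Fst rose (2.22 ± 0.27). In KOSR/LIF against serum/LIF Gata4 rose by 2.16 ± 0.38 and Fst fell by 1.90 ± 0.31. Of the defining factors, Sox7 was well above background on 0 of 5 2i/LIF, 2 of 3 KOSR/LIF and 1 of 3 serum/LIF arrays. Gata6 and Sox17 were each well above background on 3 of 5 2i/LIF, 2 of 3 KOSR/LIF and 2 of 3 serum/LIF arrays, and Gata4 on all 11 arrays. In 2i/LIF against serum/LIF, Gata4 (0.02 ± 0.34), Sox17 (0.07 ± 0.47) and Gata6 (-0.75 ± 0.98) did not pass.

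Of 15 fibroblast markers 12 were tested, and 3 fell and 0 rose in 2i/LIF against serum/LIF, 1 fell and 0 rose in KOSR/LIF against serum/LIF, and 4 fell and 1 rose in 2i/LIF against KOSR/LIF. In that order 25%, 8.33% and 33.3% fell, against 9.98%, 2.21% and 8.72% of all genes. The shares that rose were 0%, 0% and 8.33%, against 6.74%, 2.37% and 5.95% of all genes. The summed level was 119 to 182 in 2i/LIF, 100.2 to 173 in KOSR/LIF and 148 to 203 in serum/LIF. That sum is carried by Fn1, Tagln and Vim, with log2 levels of 6.96, 3.77 and 5.38 on 2i/LIF replicate 4. The median log2 level of the 12 tested markers was -3.31 to -2.29 in 2i/LIF, -2.02 to -0.71 in KOSR/LIF and -2.26 to -1.03 in serum/LIF. Here too no 2i/LIF array reached any other array, but replicate 5 (-2.29) came close to serum/LIF replicate 2 (-2.26). Of the 12, 7 to 10 were well above background on the 2i/LIF arrays. In KOSR/LIF 6 to 11 were, and in serum/LIF 10 to 12, so here too some medians rest partly on dim signals. Prrx1 and Fap were well above background on no array, and Postn on 1 serum/LIF array. Thy1, Acta2, Tagln, Fn1 and Vim were so on all 11 arrays, Pdgfrb on 10 and S100a4 on 9. In 2i/LIF against serum/LIF 9 of the 12 tested did not pass. Among these, Vim levels overlapped (3.09 to 5.71 in 2i/LIF, 3.26 to 4.64 in serum/LIF). So did Pdgfrb levels (-2.99 to -1.21 in 2i/LIF, -3.35 to -2.50 in serum/LIF). Acta2, smooth muscle actin, fell by 4.52 ± 0.78 against serum/LIF and fell by 5.11 ± 0.78 against KOSR/LIF in 2i/LIF. Dcn, the proteoglycan decorin that coats collagen fibrils, was at least 3.77-fold lower in 2i/LIF cells than in serum/LIF (means -5.41 and -2.85) and at least 5.75-fold lower than in KOSR/LIF (means -5.41 and -2.24). Twist2 was at least 5.15-fold lower than in serum/LIF (means -6.89 and -2.43). Dcn and Twist2 passed the filter on dim probes through KOSR/LIF and serum/LIF arrays alone, so their falls are not independent of that filter. Pdgfra fell by 2.98 ± 0.84 and Fn1, which encodes fibronectin, rose by 0.84 ± 0.23 in 2i/LIF against KOSR/LIF, and S100a4 fell by 2.22 ± 0.51 in KOSR/LIF against serum/LIF. Pdgfra, which is on the endoderm list too, was well above background on 2 of 5 2i/LIF and 2 of 3 KOSR/LIF arrays. Its level on KOSR/LIF replicate 3 (-4.33) lay within the 2i/LIF range (-5.28 to -4.29). The part of either cell type in the collagen differences was not tested.

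Of 13 ES cell markers, 1 rose and 3 fell in 2i/LIF against serum/LIF, 0 rose and 3 fell in KOSR/LIF against serum/LIF, and 5 rose and 2 fell in 2i/LIF against KOSR/LIF. In that order 23.1%, 23.1% and 15.4% fell, against 9.98%, 2.21% and 8.72% of all genes. The shares that rose were 7.69%, 0% and 38.5%, against 6.74%, 2.37% and 5.95% of all genes. Their summed level was 796 to 1048 in 2i/LIF, 527 to 665 in KOSR/LIF and 791 to 1031 in serum/LIF. Tfcp2l1, a factor of the naive state, rose in 2i/LIF by 1.45 ± 0.25 against serum/LIF and by 2.88 ± 0.25 against KOSR/LIF. In 2i/LIF against serum/LIF the RNA-binding protein gene Lin28a (-3.01 ± 0.54), Dppa4 (-1.34 ± 0.24) and Tdgf1 (-1.07 ± 0.31) fell. Klf2 (-1.66 ± 0.31), Tfcp2l1 (-1.42 ± 0.28) and Sox2 (-1.35 ± 0.25) fell in KOSR/LIF against serum/LIF. In 2i/LIF against KOSR/LIF, Klf2 (1.81 ± 0.28) and Nanog (1.81 ± 0.41) rose and Lin28a (-2.52 ± 0.54) fell.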

How the data were processed

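Each of 11 samples has 1 scanner file. Its deposited intensities are linear and had been corrected for background and spatial trend with Agilent's Feature Extraction 11.0.1.1 software, as recorded per the file headers, without scaling between arrays. RNA was extracted with Qiagen kits and labelled with Cy3, per the labels' protocols. A deposited value table, also of intensities, has columns with near-equal medians (46.5 to 47.8) and one shared maximum. How the authors made it is not stated in the labels or headers, and it served as an alternative.

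Spots without outlier flags were averaged to 55681 probes, and 33 probes flagged on some array were left out. A RefSeq accession was present for 29109 probes, and 27642 got a name from RefSeq's GRCm38.p6 table, used for names because the probe design is of build mm9. The 44 collagen genes had 63 probes, and 8 genes had more than 1 that passed the filter. The array's 75th percentile of log2 intensity was subtracted. Probes well above background on fewer than 3 arrays were left out. One model over all arrays (lmFit and eBayes, limma 3.58.1, R 4.3.3, no covariates, two-sided, Benjamini-Hochberg over 16279 genes, threshold 0.05) gave the comparisons, with 8 residual and 3.52 prior degrees of freedom. The median SD between replicate arrays was 0.44 over all genes and 0.68 over the collagens (log2). The number of arrays limits the precision. Where no array of a medium was well above background, "at least" marks a bound on the fold: the brighter medium's mean against the dimmer one's mean after each dim signal below the array's floor (its lowest signal well above background) was set to that floor. The brighter medium's mean can include signals not well above background, and the adjusted p beside a bound is that of the fitted values and does not test the bound. Floored values apply the same flooring of dim signals to probes seen on some arrays.

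Named in full are 17 members: those that passed in at least 1 comparison and 10 main chains whatever their result. Each other list contributes, of its members that passed, the 3 that changed most in the commoner direction and 1 in the opposite one. Members and lists were chosen with earlier results of these data known. The model was tested on simulated data. Alternatives covered background correction, normalization, the authors' table, filters, probe rules, slide, scan day, line, replicate number and leaving out arrays. The files hold no mean spot signal, so normexp (offset 50) used median spot and background signals in place of the planned mean.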

Additional observations from a re-analysis of the deposited data

Results flagged for a closer look

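Col3a1 on 2i/LIF replicate 2 stood apart from the other arrays of its medium. It read -1.03, while the nearest of the other 2i/LIF arrays read -4.22 and the lowest -4.99, so the gap to the nearest array was 0.807 of the range over the 5 arrays, above Dixon's critical value of 0.71. Chance flags about 1 in 20 groups.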

How the results depend on the processing

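Of the 28 calls of collagen chain genes in the 3 comparisons, 9 passed under every alternative tested (26 to 28 for each call), and no call turned its direction in a tested alternative. These 9 were Col1a2, Col4a1 and Col4a2 in 2i/LIF against both other media, Col18a1 in 2i/LIF against serum/LIF, and Col2a1 and Col22a1 in 2i/LIF against KOSR/LIF. Normexp background correction lost 13 calls, analysis within the first scan day 11 and the replicate block 9; for these the cause was not tested, beyond the smaller number of arrays within a scan day. Normexp called 7 collagens and 1755 genes in 2i/LIF against serum/LIF, 0 and 374 in KOSR/LIF against serum/LIF, and 1517 genes in 2i/LIF against KOSR/LIF. With no filter on dim probes 0 collagens and 451 genes were called in KOSR/LIF against serum/LIF. The collagen count in KOSR/LIF against serum/LIF was 1 with quantile normalization, with the line by source name as a block and without 2i/LIF replicates 1 and 5, and 0 when only these media were fitted. Within the third scan day, where serum/LIF had 1 array assumed to vary like the 2 of 2i/LIF, 1117 genes were called in 2i/LIF against serum/LIF. Leaving out each array in turn gave 10 to 14 collagens in 2i/LIF against serum/LIF, 0 to 3 in KOSR/LIF against serum/LIF and 10 to 14 in 2i/LIF against KOSR/LIF, and 225 to 915 genes in KOSR/LIF against serum/LIF. Deviations of same-numbered arrays from the means of their media correlated at -0.20 to 0.18. These values do not settle whether the arrays are paired, since some share more than a number. KOSR/LIF and serum/LIF replicate 2 are both of line HVJu9.3 and share a slide and a scan day. KOSR/LIF replicate 1 and serum/LIF replicate 3 are of line E14, and KOSR/LIF replicate 3 and serum/LIF replicate 1 of HVJu5.1. Matching by number therefore crosses these lines between KOSR/LIF and serum/LIF, and the replicate block does not pair these media by line. By title, 2i/LIF and serum/LIF replicates 1 to 3 match in line. The replicate block called 11, 0 and 9 collagens in the 3 comparisons and 1408 genes in 2i/LIF against KOSR/LIF. Reversed values were Col4a6 in 2i/LIF against serum/LIF with the mean over probes (-1.47), which takes in its dimmer probe, and Col13a1 in 2i/LIF against KOSR/LIF within the second scan day (0.27), where each medium had 1 array and no test was possible. The higher floor of KOSR/LIF replicate 3 limits what can be read for dim members in KOSR/LIF.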
